A study of Homo sapiens with 27 samples.

Results

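The 10 genes described here are MUC1, MUC12, MUC13, MUC20, MUC2, MUC5AC, MUC5B, MUC6, TFF3 and AGR2, which code for mucins and for proteins that goblet cells secrete or need for secretion. They were chosen by gene symbol, with no expression value in the rule, but with earlier results of these data known. Counts of members called are therefore a description and no test of the set. All 10 were found among the 26255 gene symbols of each library. Of these, 4 are gel-forming mucins (MUC2, MUC5AC, MUC5B and MUC6), 4 are membrane-bound mucins (MUC1, MUC12, MUC13 and MUC20), TFF3 is a trefoil peptide, and AGR2 is a protein disulfide isomerase of the endoplasmic reticulum.

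RNA was sequenced from HCT116, SW480 and DLD-1, 3 established human colorectal cancer (CRC) cell lines, with 27 libraries in 9 sets of 3. Each line was measured as untreated cells (WT, labelled as negative control), as cells resistant to fluorouracil (5-FU res) and as cells resistant to oxaliplatin (OX res). The series text gives long exposure of about 6 months, at 5 to 70 µM fluorouracil or 5 to 35 µM oxaliplatin. The drugs are an antimetabolite and a platinum compound, respectively. All cells were grown in low-glucose DMEM with fetal bovine serum. The methods of the study describe the making of the resistant cells for HCT116 and SW480 but not for DLD-1. Whether the 3 libraries of a set were grown as separate cultures is not stated, and the p-values therefore cover only the variation among these libraries, part or all of which may be technical. The DLD-1 libraries carry a separate run of library numbers, so the line and that run cannot be told apart in any comparison between lines.

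In the colon, goblet cells fill their apical granules with gel-forming mucins, which swell into the mucus gel after release. These proteins polymerise through disulfide bonds that are formed in the endoplasmic reticulum, where AGR2 takes part in the folding of MUC2, and they are coated with O-linked sugars in the Golgi. MUC2 is the main gel-forming mucin of the healthy colon, MUC5AC that of the stomach surface, and MUC6 that of the deep gastric glands. Membrane mucins stay anchored at the apical surface and form part of the glycocalyx. TFF3 is packed and released together with mucins and serves in epithelial repair.

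MUC6, MUC2, MUC5AC and MUC5B lie next to each other at the end of the short arm of chromosome 11, at chr11:1012823-1036718 (minus strand), chr11:1074875-1104416, chr11:1151580-1222364 and chr11:1244296-1283402 (plus strand) in GRCh37, the build of the authors' alignment. MUC20 lies at chr3:195447755-195467994 and MUC13 at chr3:124624289-124672663, MUC1 at chr1:155158300-155162707, MUC12 at chr7:100612846-100662220, AGR2 at chr7:16831435-16873057 and TFF3 at chr21:43731777-43735519. Of the 100-base words in the longest MUC20 transcript, 28.1% also occur in MUC20-OT1 or MUC20P1, so the reads of MUC20 could be split with these neighbours and its level is uncertain to that extent. None of the other members shares such a word with another gene. Within the transcript itself, 49.7% of the words of MUC12, 19.1% of those of MUC5B and 9.08% of those of MUC20 are repeated. The search covered the longest annotated transcript of each member, of 1811 bases for MUC1, 4209 for MUC2 and 4012 for MUC5AC. Any repeats outside these models were not examined.

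A promoter sequence was at hand for 5 of the 10 genes, and the 250 bases before the start of AGR2, MUC13 and MUC1 are shown because these are the 3 of them whose RNA was measured at a TPM of 1 or more. They are from RefSeq in GRCh38.p14, all on the minus strand, at chr7:16805000-16805249 for AGR2, chr3:124934752-124935001 for MUC13 and chr1:155192916-155193165 for MUC1. The start is that of RefSeq and was not matched to the gene spans given above, which are from another build and annotation. A window may therefore lie inside such a span. Capitals mark the letters CAGCTG (an E-box), TGTTTAC (forkhead), GGGCGG (GC box) and TATAAA, each searched on both strands.
AGR2: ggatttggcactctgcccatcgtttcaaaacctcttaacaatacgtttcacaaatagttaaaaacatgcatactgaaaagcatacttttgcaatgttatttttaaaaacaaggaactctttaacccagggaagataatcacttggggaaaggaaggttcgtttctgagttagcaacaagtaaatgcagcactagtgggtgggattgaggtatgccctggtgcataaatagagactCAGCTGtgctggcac
MUC13: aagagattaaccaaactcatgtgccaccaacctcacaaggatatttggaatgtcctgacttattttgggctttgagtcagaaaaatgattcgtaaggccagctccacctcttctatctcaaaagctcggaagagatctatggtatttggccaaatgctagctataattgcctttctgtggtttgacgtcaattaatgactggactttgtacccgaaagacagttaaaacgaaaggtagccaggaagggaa
MUC1: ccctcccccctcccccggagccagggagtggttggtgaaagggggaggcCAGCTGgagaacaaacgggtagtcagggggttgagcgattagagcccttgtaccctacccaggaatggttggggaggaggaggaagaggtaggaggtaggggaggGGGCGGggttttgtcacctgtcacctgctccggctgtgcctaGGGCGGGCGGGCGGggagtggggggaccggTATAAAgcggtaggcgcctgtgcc
AGR2 has CAGCTG at position -15 from the start, MUC13 has none of the 4, and MUC1 has CAGCTG at -201, GGGCGG at -96, -54, -50 and -46 (the last 3 overlap) and TATAAA at -24. Over 35116 RefSeq promoters of the same table, 14.0% hold CAGCTG, 2.98% TGTTTAC, 42.6% GGGCGG and 10.7% TATAAA. These matches describe the letters of the window and nothing about binding.

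Levels were taken as TPM, the library-scaled transcript level, which was computed from the FPKM of the authors and is per length. Comparisons between genes within a library rest on the gene lengths used by the authors, which were not stated. Library sums of FPKM ran from 451770 to 804640, and the correlation of log2(TPM + 1) across genes between libraries of a set was 0.991 to 0.995. The number of reads was not stated, so the depth behind each value is unknown, and no library stood apart from its set in these measures. Epithelial markers fitted the labels in part. KRT8, KRT18, KRT19 and EPCAM were at a mean TPM of 68.2 or more in all 9 sets. The lowest of these means was that of EPCAM in HCT116 OX res, against 392 in HCT116 WT. Of the 10 colon epithelial markers, 5 to 8 had a mean TPM of 1 or more. CDH17, an intestinal cadherin, was at a mean TPM of 0.0908 or less in HCT116 and SW480 and of 62.7 to 193 in DLD-1. VIL1 had another order, with mean TPM of 2.67 to 10.9 in SW480, 0.0755 to 0.278 in DLD-1 and at most 0.0344 in HCT116. Of the fibroblast, leukocyte and endothelial markers, COL1A2, DCN, PTPRC and PECAM1 had mean TPM values of 0.123 or less everywhere, while the highest set means of COL1A1, CD68, CD14 and VWF were 16.2, 61.5, 4.47 and 1.73.

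AGR2, TFF3, MUC20, MUC5AC and MUC6 were higher in DLD-1 than in the other lines, whereas MUC1 was expressed in all 3 lines and MUC13 was highest in SW480 5-FU res. The set means of 7 of the 10 genes were highest in a DLD-1 set, and for MUC20, MUC5AC, MUC6, TFF3 and AGR2 every DLD-1 library lay above every library of the other lines. HCT116 and SW480 expressed mainly membrane mucins. The sum of the 10 genes in WT cells was 767 ± 6.36 TPM (SD, n = 3) in DLD-1, 11.9 ± 0.633 in HCT116 and 5.96 ± 0.248 in SW480. MUC2, MUC5B and MUC12 stayed under a TPM of 1 in all 27 libraries, with maxima of 0.630, 0.293 and 0.290, and were not tested.

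**Figure D1:**
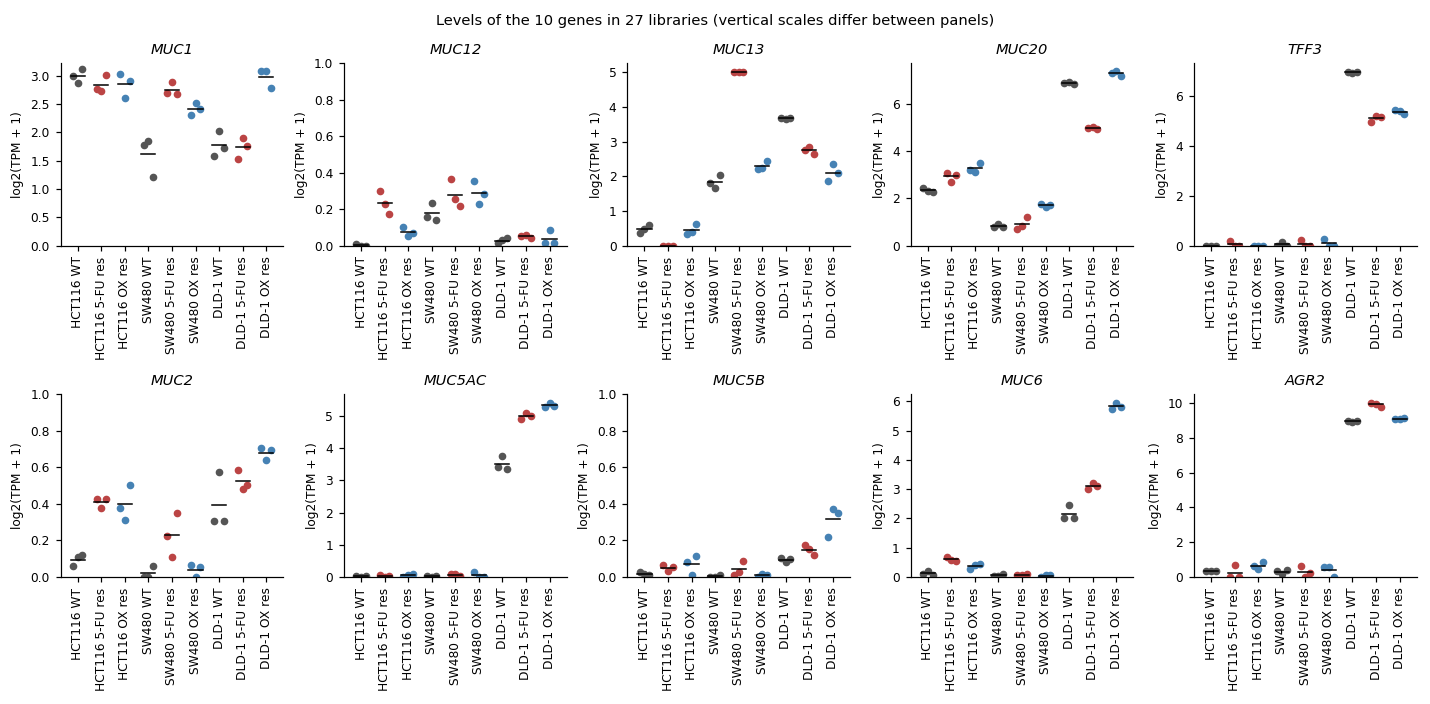
Levels of the 10 genes as log2(TPM + 1), with a point for each library, a line at the mean of the 3 libraries and a separate vertical scale for each gene. MUC5AC, MUC6, TFF3 and AGR2 are near 0 outside DLD-1, MUC13 is highest in SW480 5-FU res, and MUC2, MUC5B and MUC12 stay below 1 on this scale.

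AGR2 was the most abundant of the 10 genes in DLD-1. Its TPM was 504, 489 and 507 in the WT libraries, 1041, 1011 and 892 in 5-FU res cells and 542, 545 and 566 in OX res. The 3 groups did not overlap, with 5-FU res highest and OX res just above WT. In HCT116 and SW480 the 18 libraries ranged from 0 to 0.776 TPM. Between WT cells, DLD-1 exceeded HCT116 by 8.63 on the log2(TPM + 1) scale (SE 0.168, adjusted p = 2.0e-22) and SW480 by 8.67 (adjusted p = 1.5e-22). AGR2, TFF3, MUC5AC and MUC6 entered the fit over all 27 libraries only through DLD-1, where they were high. Some excess of DLD-1 was thus built into their being tested, and their p-values against the other lines are not read as support for it.

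TFF3 was at 123, 119 and 123 TPM in DLD-1 WT, 29.4, 35.2 and 34.5 in 5-FU res cells and 42.1, 41.4 and 37.1 in OX res. All WT libraries lay above all resistant ones, and 5-FU res lay below OX res. In HCT116 and SW480 TFF3 was listed at 0 in 14 of 18 libraries and reached at most 0.218. The WT difference from HCT116 was 6.94 (SE 0.0935, adjusted p = 2.8e-25) and from SW480 6.88 (adjusted p = 3.2e-25).

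Of the gel-forming mucins, MUC5AC was at 9.66, 12.5 and 9.22 TPM in DLD-1 WT, 29.1, 33.0 and 30.8 in 5-FU res cells and 37.9, 41.5 and 38.5 in OX res. The order was the same for MUC6, with 3.08, 4.44 and 3.03 in WT, 7.00, 8.16 and 7.53 in 5-FU res cells and 52.4, 60.9 and 55.7 in OX res. For these genes none of the 3 DLD-1 groups overlapped. Outside DLD-1, MUC5AC did not exceed 0.101 TPM and MUC6 did not exceed 0.603, the latter in HCT116 5-FU res. The WT differences from HCT116 were 3.49 for MUC5AC and 2.05 for MUC6, and those from SW480 were 3.49 and 2.11, with adjusted p of at most 3.6e-15. MUC2 and MUC5B were low, but their highest set means, 0.601 and 0.244 TPM, were also those of DLD-1 OX res, where no library overlapped with DLD-1 5-FU res. In the GENCODE annotation lifted to this build the longest transcripts of MUC2 and MUC5AC span 4209 and 4012 bases, and the gene models used by the authors were not stated, so the length behind the FPKM of both is unknown.

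Among the membrane mucins, MUC20 was at 116, 119 and 114 TPM in DLD-1 WT, 30.2, 31.2 and 29.3 in 5-FU res cells and 159, 167 and 145 in OX res, again with no overlap. It was lower in HCT116, from 3.84 to 10.3 over the 9 libraries, and in SW480, from 0.652 to 2.44. DLD-1 WT exceeded HCT116 WT by 4.53 and SW480 WT by 6.03, and SW480 WT was 1.50 below HCT116 WT (log2 difference -1.50, adjusted p = 2.2e-11). In the order of the 9 set means of MUC20, neighbouring sets did not overlap except SW480 5-FU res and SW480 WT.

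MUC13 followed another order. SW480 5-FU res was highest, at 31.1, 31.2 and 31.2 TPM, followed by DLD-1 WT at 11.9, 11.5 and 11.7 and DLD-1 5-FU res at 5.76, 6.18 and 5.24. SW480 OX res (3.58, 3.72 and 4.44), DLD-1 OX res (2.66, 4.11 and 3.25) and SW480 WT (2.51, 2.17 and 3.08) came next, each overlapping with its neighbour in this order. In HCT116 it was at 0.275 to 0.528 TPM in WT and OX res, which overlapped, and was listed at 0 in all 3 libraries of 5-FU res. Between WT cells, MUC13 was higher in DLD-1 than in SW480 by 1.83 (adjusted p = 2.8e-13) and in SW480 than in HCT116 by 1.35 (adjusted p = 1.0e-10).

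MUC1 was the only member at a TPM of 1 or more in all 27 libraries, from 1.31 to 7.71. Its set means fell into a higher range of 4.32 to 6.99, which held the HCT116 sets, the resistant SW480 sets and DLD-1 OX res, and a lower range of 2.11 to 2.45, which held DLD-1 WT, DLD-1 5-FU res and SW480 WT. Neighbours in the order overlapped except at SW480 5-FU res against SW480 OX res and at SW480 OX res against DLD-1 WT. HCT116 WT exceeded SW480 WT and DLD-1 WT (log2 differences of -1.39 and -1.22 for the latter lines, adjusted p = 2.4e-08 and 1.5e-07). DLD-1 WT and SW480 WT differed by 0.17 (95% interval -0.15 to 0.49), and the sign of that difference changed with the scaling.

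In these WT comparisons a gene was called when its adjusted p was under 0.05 and its log2 difference beyond 1 (the rule used throughout). MUC5AC, MUC6, TFF3 and AGR2 reached a TPM of 1 in the 9 DLD-1 libraries alone and so passed the filter on low values only through the line in which they were high, and nothing is read from the following counts against the share of all genes. DLD-1 against HCT116 called 7 of 7 members tested (6 higher, 1 lower) where 34.5% of 15801 genes were called (24.9% higher, 9.68% lower), DLD-1 against SW480 called 6 of 7 (all higher) where 35.9% were called (25.0% higher, 10.9% lower), and SW480 against HCT116 called 3 of 7 (1 higher, 2 lower) where 25.1% were called (12.6% higher, 12.4% lower). With median-of-ratios scaling the genes called higher and lower were 2356 and 2527 for DLD-1 against HCT116 in place of 3929 and 1529, and 2420 and 2793 for DLD-1 against SW480 in place of 3946 and 1722.

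The resistant groups of DLD-1 differed from WT in several members and in different ways. In 5-FU res, MUC5AC rose and TFF3 and MUC20 fell. In OX res, MUC6, MUC5AC and MUC1 rose and TFF3 and MUC13 fell. MUC5AC was thus called higher and TFF3 lower in both resistant groups, and MUC20 differed from WT in opposite directions, past the rule in 5-FU res only. As bulk RNA was measured, a larger share of cells with a transcript and more transcript per cell cannot be told apart.

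For 5-FU res against WT in DLD-1, 3 of 7 members tested were called (1 higher, 2 lower), where 3.88% of 13467 genes were called (2.12% higher, 1.76% lower), 46.4% passed the adjusted p alone and the median of all genes was -0.03. MUC5AC rose by 1.49 (SE 0.0965, adjusted p = 1.8e-07), a ratio of mean TPM of 2.96. MUC20 fell by 1.92 (SE 0.0546, adjusted p = 2.1e-10) to 0.259 of its WT level, and TFF3 fell by 1.85 (SE 0.0707, adjusted p = 2.6e-09) to 0.272 of it. AGR2, MUC6 and MUC13 passed the adjusted p but not the fold, with log2 differences of 0.97 (ratio 1.96, adjusted p = 5.3e-08), 0.94 (ratio 2.15, adjusted p = 3.6e-05) and -0.92 (ratio 0.489, adjusted p = 5.2e-05). Without replicate 3 of 5-FU res the AGR2 difference was 1.04, and without replicate 2 of WT that of MUC6 was 1.08, both past the rule. MUC1 differed by -0.04 (95% interval -0.36 to 0.28).

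For OX res against WT in DLD-1, 5 of 7 members were called (3 higher, 2 lower), where 3.61% of genes were called (2.7% higher, 0.913% lower) and 49.8% passed the adjusted p alone. MUC6 had the largest difference of the 7, a rise of 3.68 (SE 0.114, adjusted p = 4.4e-10), a ratio of 16.0. MUC5AC rose by 1.82 (SE 0.0965, adjusted p = 3.7e-08), a ratio of 3.76, and MUC1 by 1.20 (SE 0.148, adjusted p = 3.8e-05), a ratio of 2.82, although the MUC1 difference was 0.90 on the FPKM scale and no longer past the rule. TFF3 fell by 1.58 (SE 0.0707, adjusted p = 9.5e-09) and MUC13 by 1.56 (SE 0.118, adjusted p = 7.6e-07). MUC20 differed by 0.42 and AGR2 by 0.14 (adjusted p = 0.049), neither past the fold, and the AGR2 difference was -0.0031 on the FPKM scale.

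The same WT libraries serve in both comparisons, so the resistant groups were also compared with each other, which called 3 of 7 members (3 higher in OX res), where 8.52% of genes were called (5.97% higher, 2.55% lower) and 62.9% passed the adjusted p alone. MUC6 was higher in OX res by 2.74 (adjusted p = 1.8e-09), MUC20 by 2.34 (adjusted p = 2.6e-11) and MUC1 by 1.24 (adjusted p = 1.4e-05; 0.92 on the FPKM scale, not past the rule). MUC5AC (0.34), TFF3 (0.28), MUC13 (-0.64) and AGR2 (-0.83) differed with adjusted p of 0.0092 or less, without passing the fold. Over the alternatives of processing MUC5AC fell to as little as 0.14 and TFF3 to 0.085, with limma adjusted p of up to 0.19 and 0.3. With median-of-ratios scaling, the genes called higher and lower were 282 and 154 for OX res against WT in place of 363 and 123, and 566 and 442 for OX res against 5-FU res in place of 804 and 344, with 5 and 3 members called.

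**Figure D2:**
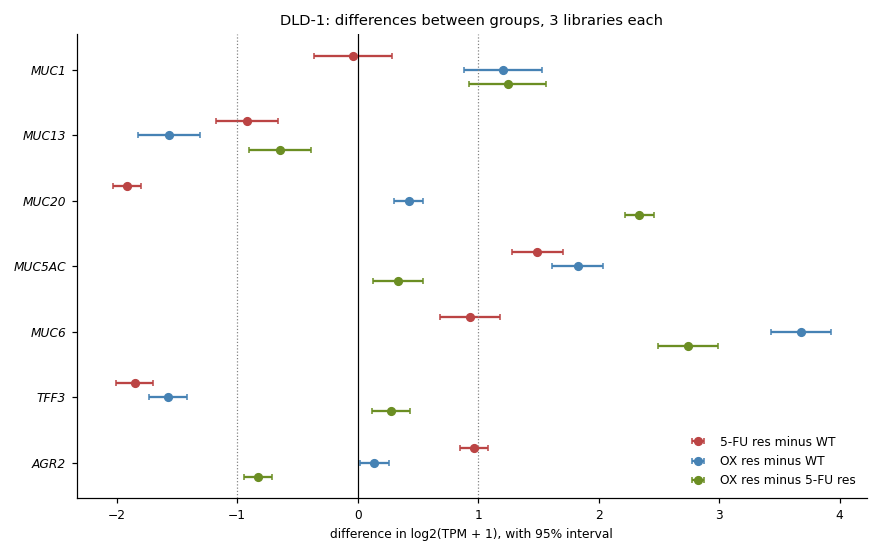
Differences in log2(TPM + 1) between the DLD-1 groups for the 7 members tested, with 95% intervals from limma and dotted lines at the fold of the rule. MUC6 in OX res lies furthest to the right at 3.68, TFF3 lies left of -1 in both resistant groups, and MUC20 lies at -1.92 in 5-FU res cells and at 0.42 in OX res.

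The makeup of the gel-forming mucin RNA in DLD-1 differed between the groups. The sum of the 4 genes was 14.4 ± 2.71 TPM (SD, n = 3) in WT, 39.1 ± 2.48 in 5-FU res cells and 96.5 ± 6.21 in OX res. MUC5AC made up 73.0% ± 1.32 of it in WT, 79.3% ± 0.0564 in 5-FU res cells and 40.8% ± 0.760 in OX res, while MUC6 made up 24.4% ± 0.917, 19.3% ± 0.277 and 58.3% ± 0.768. By these TPM values MUC6 was the more abundant of both genes in every OX res library and the less abundant in every other DLD-1 library. The order of the genes and all shares given here depend on the gene lengths behind the FPKM, which were not stated. Of the 4 membrane mucins, MUC20 made up 89.2% ± 0.145 of the TPM in WT, 78.9% ± 1.06 in 5-FU res cells and 93.9% ± 0.323 in OX res, and their sum was 131 ± 2.54, 38.3 ± 1.65 and 167 ± 12.3 TPM. AGR2 made up 65.2% ± 0.691 of the TPM of all 10 genes in WT, 89.8% ± 0.971 in 5-FU res cells and 64.5% ± 1.83 in OX res. These shares are a description without a test.

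**Figure D3:**
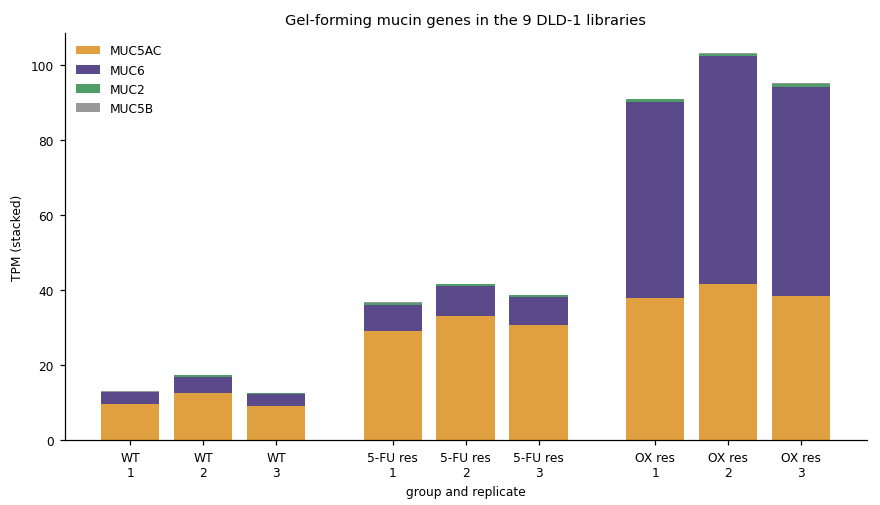
TPM of the 4 gel-forming mucins, stacked, in each of the 9 DLD-1 libraries, with MUC5AC at the bottom and MUC6 above it. The stacks reach 12.6 to 17.5 TPM in WT, 36.8 to 41.7 in 5-FU res and 91.1 to 103 in OX res, where MUC6 is the larger part, and MUC2 and MUC5B are thin slices at the top.

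In SW480, the largest difference of a member from WT was that of MUC13 in 5-FU res, and in OX res MUC13 was not past the fold. Of the 3 members tested, 2 rose in 5-FU res, where 21.2% of 14039 genes were called (18.3% higher, 2.85% lower), 77.3% passed the adjusted p alone and the median of all genes was 0.44. MUC13 rose from 2.58 ± 0.462 to 31.2 ± 0.0928 TPM (SD, n = 3), by 3.17 on the log2 scale (SE 0.114, adjusted p = 2.9e-09), a ratio of 12.1. MUC1 was at 2.42, 2.60 and 1.31 in WT and at 5.43, 6.37 and 5.39 in 5-FU res, a rise of 1.14 (SE 0.163, adjusted p = 7.9e-05). This MUC1 call was lost without WT replicate 3 (0.94) and with FPKM (0.69), median-of-ratios scaling (0.75) or quantile normalization (0.51), and relative to the median of all genes it was 0.70. MUC20 differed by 0.07 (95% interval -0.23 to 0.37).

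For SW480 OX res against WT, 0 of 3 members were called, where 15.0% of genes were called (13.7% higher, 1.22% lower), 71.8% passed the adjusted p alone and the median was 0.36. By limma all 3 had an adjusted p under 0.05, with differences of 0.80 for MUC1, 0.46 for MUC13 and 0.87 for MUC20, and the MUC13 difference was -0.065 with quantile normalization. Over the alternatives of processing MUC1 fell to as little as 0.27 and MUC20 to 0.44, with limma adjusted p of up to 0.19 and 0.017. MUC20 was at 2.44, 2.15 and 2.32 TPM in OX res against 0.745, 0.909 and 0.749 in WT. OX res was lower than 5-FU res in MUC13 by 2.71 on the log2 scale (log2 difference -2.71, SE 0.114, adjusted p = 2.1e-08), the only 1 of 3 called, where 11.1% of genes were called (4.61% higher, 6.49% lower) and 61.6% passed the adjusted p alone.

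In HCT116, MUC1 and MUC20 were the members tested, and neither was called in any comparison. MUC20 was at 4.43, 4.02 and 3.84 TPM in WT, 7.51, 5.55 and 7.01 in 5-FU res cells and 8.30, 7.55 and 10.3 in OX res, with both resistant groups above WT. Its differences from WT by limma were 0.59 (adjusted p = 0.0013) and 0.92 (adjusted p = 2.4e-05), and relative to the median of all genes (0.18 and 0.60) they were 0.40 and 0.33. Without replicate 2 of OX res the difference of OX res from WT was 1.01 and past the rule. Over the alternatives of processing the differences fell to as little as 0.16 in 5-FU res and 0.16 in OX res. The limma adjusted p rose to as much as 0.16 and 0.15, respectively. OX res exceeded 5-FU res by 0.34 (adjusted p = 0.030), which was -0.016 with median-of-ratios scaling. MUC1 differed from WT by -0.16 and -0.15 (adjusted p = 0.26 each), and between the resistant groups by 0.0090, all with overlapping groups. The counts of 0 of 2 members stand beside 15.4% of 14010 genes called in 5-FU res (11.6% higher, 3.82% lower), 33.3% in OX res (28.5% higher, 4.83% lower) and 22.5% between them (17.3% higher, 5.19% lower), and beside 74.7%, 86.2% and 77.1% of genes, respectively, that passed the adjusted p alone.

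In HCT116 and SW480 most called genes were higher in the resistant cells, and this split depended on the scaling. With median-of-ratios scaling 994 were higher and 1071 lower in HCT116 5-FU res in place of 1621 and 535, and 1419 and 1855 in HCT116 OX res in place of 3991 and 676. In SW480 it gave 1143 and 1122 in 5-FU res in place of 2576 and 400, and 775 and 606 in OX res in place of 1930 and 171. The MUC13 call in SW480 5-FU res was kept in every alternative, with differences from 2.62 to 3.56.

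The difference from WT was also compared between lines by an interaction term over all 27 libraries. For 5-FU res it was called for 2 of 7 members between SW480 and HCT116 (19.8% of 15801 genes called), 4 between DLD-1 and HCT116 (18.5%) and 5 between DLD-1 and SW480 (23.5%). For OX res it was called for 0 of 7 between SW480 and HCT116 (19.5%), 5 between DLD-1 and HCT116 (29.1%) and 4 between DLD-1 and SW480 (14.4%). MUC13 differed most in 5-FU res, with DLD-1 lower than SW480 by a log2 difference of -4.09 (SE 0.155, adjusted p = 6.3e-16). MUC6 differed most in OX res, with DLD-1 above SW480 by 3.69 (SE 0.136, adjusted p = 1.2e-15) and above HCT116 by 3.43 (adjusted p = 7.7e-16). MUC5AC, MUC6, TFF3 and AGR2 were near 0 in HCT116 and SW480 and entered this fit through DLD-1 alone, so their calls between DLD-1 and another line repeat the differences within DLD-1, and nothing is read from these counts against the share of all genes.

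The list of goblet lineage factors held 15 genes, among them the receptor NOTCH1 and its ligands DLL1 and DLL4, which are not transcription factors. ATOH1, which directs secretory fate, did not exceed a set mean of 0.292 TPM in any set. NEUROG3, also on the list, was at 0 in nearly all libraries. SPDEF, which drives goblet cell maturation, was found in DLD-1 alone among the set means of 1 or more, at 1.95 TPM in WT, 1.13 in 5-FU res cells and 2.34 in OX res, with differences from WT of -0.53 and 0.18 that were not called. KLF4, a factor of goblet cell differentiation, rose in HCT116 OX res from 11.8 to 91.8 TPM (log2 difference 2.85, SE 0.0846, adjusted p = 4.5e-11) and in SW480 5-FU res by 1.26. HES1, a Notch target that opposes secretory fate, rose in HCT116 OX res by 1.11. CDX2, the intestinal homeobox factor, fell in SW480 5-FU res by 2.77 (SE 0.065, adjusted p = 1.8e-10), from 44.4 to 5.66 TPM, and in DLD-1 5-FU res by 1.08, from 193 to 91.0 TPM. FOXA3 rose in DLD-1 OX res by 1.37 and fell in HCT116 OX res by 1.30, and FOXA2 rose in SW480 OX res by 1.59. FOXA1, named here after its values were seen, had a mean of 169 to 203 TPM in the DLD-1 sets and of at most 3.45 elsewhere. HNF4A, also named after its values were seen, was at 7.27, 5.50 and 7.72 TPM in SW480 WT, 19.1, 18.8 and 20.2 in 5-FU res cells and 5.78, 4.88 and 5.68 in OX res, an order of groups in which 5-FU res was highest, as for MUC13. Of the list, 8 genes were tested in HCT116 (1 higher and 1 lower in 5-FU res, 3 and 1 in OX res), 10 in SW480 (3 and 1, 3 and 0) and 12 in DLD-1 (0 and 1, 2 and 0), with medians of 0.31 and 0.67, 0.49 and 0.48, and -0.41 and -0.12. Over all genes tested, the medians for 5-FU res and OX res were 0.18 and 0.60 in HCT116, 0.44 and 0.36 in SW480 and -0.03 and 0.13 in DLD-1. For HCT116, 11.6% of all genes tested were called higher and 3.82% lower with resistance to fluorouracil, and 28.5% and 4.83% with resistance to oxaliplatin. The corresponding shares for SW480 were 18.3% and 2.85%, then 13.7% and 1.22%, and for DLD-1 they were 2.12% and 1.76%, then 2.7% and 0.913%. The counts and medians of this and the next 4 lists stand beside these values, and no list was tested.

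The list of other goblet secreted proteins held 14 genes, of which BEST2, a channel, is not a secreted protein. CLCA1, ZG16 and RETNLB were at a mean of 0.263 TPM or less in every set. TFF1 and TFF2, trefoil peptides of the stomach that lie beside TFF3 on chromosome 21, were expressed in DLD-1 with TFF3. TFF1 was at 167, 173 and 174 TPM in WT, 112, 125 and 105 in 5-FU res cells and 32.1, 29.0 and 26.4 in OX res, a fall of 2.51 in OX res (SE 0.074, adjusted p = 3.8e-10). TFF2 was at 51.1, 59.6 and 53.9 TPM in WT, 16.2, 19.5 and 18.4 in 5-FU res cells and 7.86, 8.27 and 9.63 in OX res. It fell in 5-FU res (log2 difference -1.56) and in OX res (log2 difference -2.54, SE 0.0906, adjusted p = 1.3e-09). All 3 trefoil genes were thus lower in both resistant groups of DLD-1, with TFF1 in 5-FU res not past the fold (-0.59). In SW480 5-FU res, TFF2 rose by 2.27 (SE 0.175, adjusted p = 7.1e-07), from 3.31 to 19.7 TPM, and KLK1 fell by 1.45. In HCT116, FCGBP, an Fc-binding mucus protein, rose by 1.54 in 5-FU res from 0.702 to 3.95 TPM, and KLK1 fell by 1.14 in OX res. Of the list, 3 genes were tested in HCT116 (1 higher and 0 lower in 5-FU res, 0 and 1 in OX res), 3 in SW480 (1 and 2, 0 and 0) and 7 in DLD-1 (1 and 2, 0 and 3), with medians of -0.19 and 0.20, -1.25 and -0.07, and -0.59 and -0.35.

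Of 12 further mucin genes, MUCL1, a small secreted mucin, was expressed in SW480 alone. It was at 6.70, 10.6 and 7.76 TPM in WT, 123, 147 and 119 in 5-FU res cells and 30.4, 27.4 and 26.3 in OX res, a rise of 3.82 in 5-FU res (SE 0.14, adjusted p = 3.2e-09) and of 1.65 in OX res. Among the SW480 groups, MUC13, TFF2 and MUCL1 were therefore all highest in 5-FU res. MUC3A, a membrane mucin of the intestine, fell in DLD-1 5-FU res by 1.22, from 2.03 to 0.276 TPM, and was at 4.94 TPM in OX res (log2 difference from WT 0.99, not past the fold). The list had 2 genes tested in HCT116 (none called in either drug), 3 in SW480 (1 higher in each drug) and 2 in DLD-1 (1 lower in 5-FU res, none in OX res). The medians were -0.21 and 0.02, 0.70 and 0.93, and -0.65 and 0.50.

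The enzymes of mucin O-glycosylation build and cap the sugar chains. ST6GALNAC1, which makes the sialyl-Tn antigen, was at 42.8 TPM in DLD-1 WT and at 0.0461 or less in the other lines, and it fell in DLD-1 OX res by 1.89 (SE 0.119, adjusted p = 1.6e-07) to 11.0 TPM. ST3GAL1, a sialyltransferase of core 1 chains, rose in DLD-1 5-FU res by 1.44, from 1.92 to 6.92 TPM. In SW480, GALNT10 rose in 5-FU res by 1.92 and GALNT4 in OX res by 1.78, and in HCT116 OX res, GALNT3 fell by 1.60 and FUT3, which makes Lewis antigens, by 1.65. Of the 23 genes, 18 were tested in HCT116 (3 higher and 1 lower in 5-FU res, 1 and 2 in OX res), 14 in SW480 (3 and 1, 2 and 0) and 19 in DLD-1 (1 and 4, 1 and 1). Their medians were 0.08 and 0.32, 0.65 and 0.56, and -0.06 and 0.01.

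Of 19 symbols of mucin folding and granule release, 18 were found, and the other, TMEM16A, is an older name of ANO1. AGR3, the paralogue beside AGR2 on chromosome 7, had a mean of at most 0.476 TPM in the DLD-1 sets. PDIA4, another disulfide isomerase, rose in DLD-1 5-FU res by 1.29 (SE 0.0464, adjusted p = 1.7e-09), from 243 to 596 TPM, the group in which AGR2 was also highest. CFTR, the chloride and bicarbonate channel, fell in DLD-1 by 1.54 in 5-FU res cells and by 1.22 in OX res, from 229 to 78.4 and 97.7 TPM. In HCT116 OX res, XBP1, which drives the unfolded protein response, rose by 1.78 from 57.6 to 200 TPM, and ERN1 by 1.55. In SW480, MARCKS, which takes part in granule release, rose by 1.27 in 5-FU res, and ANO1, a calcium-activated chloride channel, by 1.21 in OX res. The list had 14 genes tested in HCT116 (2 higher and 0 lower in 5-FU res, 4 and 1 in OX res), 14 in SW480 (1 and 1, 2 and 0) and 16 in DLD-1 (1 and 2, 0 and 1). The medians were -0.12 and 0.49, 0.27 and 0.016, and 0.28 and -0.13.

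**Figure D4:**
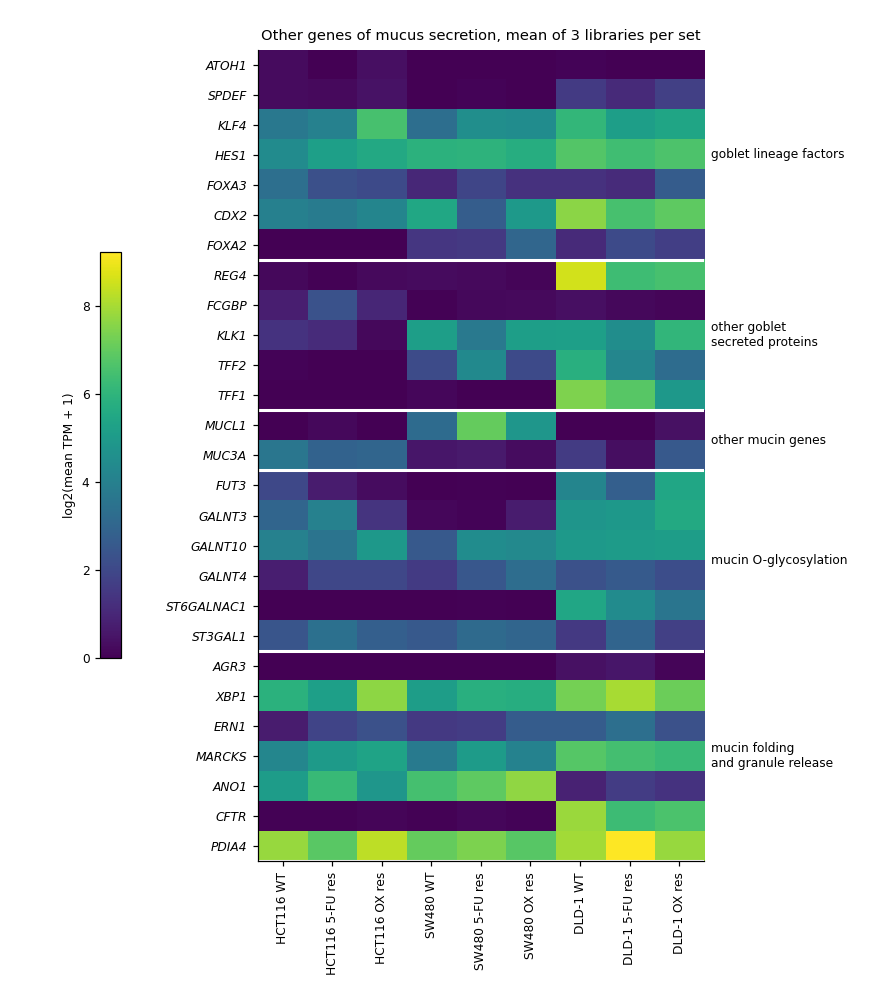
Mean level per set, as log2(mean TPM + 1), of the genes of these 5 lists named by the rule, with the set in columns and the gene in rows. REG4, TFF1, ST6GALNAC1 and CFTR are bright in the DLD-1 columns alone, MUCL1 in the SW480 columns alone, and ATOH1 and AGR3 are dark throughout.

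The genes whose pattern was most like that of a member were taken as those with the largest Pearson r over the 9 set means of log2(TPM + 1), among 15801 genes. For TFF3 these were REG4, a secreted lectin, CDH17 and CFTR, with r of 0.9996, 0.9986 and 0.9984. REG4 was at 386, 358 and 399 TPM in DLD-1 WT, 82.3, 82.5 and 76.7 in 5-FU res cells and 93.3, 97.0 and 85.4 in OX res. For AGR2 they were GSTM3, CXCL5 and ZFP57 (0.9995, 0.9994 and 0.9989), for MUC5AC SNCAIP, KIT and OLFML3 (0.9962, 0.9943 and 0.9907) and for MUC6 SLAMF6, KLK12 and PRLR (0.9915, 0.9899 and 0.9891). The r of these 4 members rests in large part on the gap between the 3 DLD-1 sets and the 6 others. For MUC20 they were KCTD3, PLCE1 and PDIK1L (0.9890, 0.9880 and 0.9841), for MUC13 WASIR2, TTC3P1 and KIAA0391 (0.9449, 0.9409 and 0.9396) and for MUC1 DMPK, PPP5D1 and TUBD1 (0.9482, 0.9372 and 0.9170). These values describe 9 means that share libraries and lines, and carry no test.

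Markers of other cell types were followed beside these results. Of 8 markers of gastric surface and neck cells, TFF1 and TFF2 were at a mean TPM of 1 or more in DLD-1 and the other 6 (GKN1, GKN2, CTSE, VSIG1, ANXA10 and CLDN18) were not, with GKN1 at 0. The summed TPM of the list in DLD-1 was 218 to 233 in WT, 124 to 145 in 5-FU res and 36.2 to 40.3 in OX res, an order opposite to that of MUC5AC and MUC6, and the part of such cells in the result was not tested. Of 8 absorptive markers 1 or 2 were at a mean TPM of 1 or more in the DLD-1 sets, with CA2 at 15.7 to 45.2, and their summed TPM was 29.7 to 34.4, 14.7 to 19.2 and 42.9 to 47.3 in the 3 groups. The sums in DLD-1 were at most 1.20 TPM for 5 enteroendocrine markers, 5.80 for 4 Paneth cell markers and 3.24 for 4 tuft cell markers. In SW480, where MUC13 rose in 5-FU res, the Paneth list was at 1.65 to 2.09, 6.36 to 7.68 and 14.8 to 21.2 TPM in WT, 5-FU res and OX res, led in OX res by DEFA5, and the tuft list, through DCLK1, at 16.5 to 23.4, 31.7 to 35.8 and 52.5 to 57.8. In the same order the gastric list was at 3.18 to 3.94, 19.4 to 21.2 and 2.37 to 4.93, through TFF2, with 5-FU res highest as for MUC13. The leukocyte list was at 6.83 to 8.11, 23.0 to 25.2 and 19.6 to 23.0, where CD68 and CD14 rose in 5-FU res by 1.55 and 1.34 and CD68 in OX res by 1.46, and the fibroblast list was at 0.869 to 1.20, 3.25 to 3.37 and 0.978 to 1.82. In DLD-1 OX res VWF rose by 1.15, and in HCT116 OX res CD68 rose by 1.92 and COL1A1 by 1.18. Over all libraries the sums were 0.289 to 17.8 for 6 fibroblast markers (COL1A1 alone had a mean TPM of 1 or more), 3.94 to 67.1 for 5 leukocyte markers (CD68 and CD14) and 0.0646 to 2.09 for 3 endothelial markers (VWF, in DLD-1 OX res). Their part in the differences was not tested.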

How the data were processed

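RNA of 27 libraries (3 lines, 3 groups, 3 libraries each) was extracted with a miRNeasy kit, made into stranded TruSeq mRNA libraries, converted for DNBSEQ and read as single reads of 100 bases. Per the labels and methods, reads were trimmed (Trimmomatic) and aligned to hg19 by TopHat2 2.1.1 (which ran Bowtie2 2.2.8 together with SAMtools 0.1.18), and the authors deposited FPKM per gene, computed with Cufflinks (methods) or Cuffdiff 2.2.1 (submitters' processing notes). Which annotation and options were used, and how many reads there were, is not given in the sources. Precision is therefore that of the spread among libraries.

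TPM was obtained as FPKM over the sum of the library and analysed as log2(TPM + 1), on which fold changes of low genes are understated. The 9 libraries of each line were fitted with limma 3.58.1 (R 4.3.3, lmFit, eBayes with trend), keeping genes that reached TPM 1 in 3 or more libraries. WT cells of the lines and interactions were tested in a fit over all 27. P-values were Benjamini-Hochberg adjusted over all genes tested, and a gene was called at an adjusted p under 0.05 and a log2 difference beyond 1. The study's Wilcoxon test cannot pass its threshold with 3 against 3 libraries. The fit of each line was tested on simulated data for OX res against WT, with no low genes among those changed. The fit over all 27 was not tested in this way. Python 3.11.15, pandas 2.3.3 and matplotlib 3.10.9 were used for the rest.

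The members and the gene lists were chosen with earlier results of these data known. Besides its 19 symbols, the list of mucin folding and granule release held a gene that is not reported here and was left out of all counts. Named beside the members were the 2 called genes of each list with the largest difference from WT per line, where groups did not overlap, ATOH1, SPDEF, KLF4, HES1, AGR3 and the 3 genes most like each member. Other names are said to be chosen after their values were seen or only describe a list. Positions came from GENCODE v44 lifted to GRCh37 and promoters from RefSeq.

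The replicate numbers gave no pairing: the correlation of same-numbered libraries' deviations from their group means was -0.196 to 0.222, over 0.1 in 5 of 27 pairs. Alternatives were other scalings (FPKM, median of ratios, quantile), a pseudocount of 0.1, no filter, a mean TPM of 5 or more, the replicate block and leaving out each library.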

Additional observations from a re-analysis of the deposited data

Results flagged for a closer look

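The difference between a resistant group and WT was itself compared between lines for 7 members, 2 drugs and 3 pairs of lines. Of these 42 differences of differences, 20 passed an adjusted p under 0.05 and a log2 difference beyond 1 in limma, and all 7 members had at least 1. Over all genes, 14.4% to 29.1% passed in the 6 comparisons. MUC5AC, MUC6, TFF3 and AGR2 entered the fit through DLD-1 alone, so their values repeat those within DLD-1 and nothing is read from the count. Values are on the log2(TPM + 1) scale.

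For MUC13, the difference of 5-FU res from WT was greater in SW480 than in HCT116 by 3.65 and was lower in DLD-1 than in SW480 (-4.09). For OX res it was lower in DLD-1 than in HCT116 (-1.54) and than in SW480 (-2.02). MUC13 was under a TPM of 1 in the libraries of HCT116, was listed at 0 in all those of 5-FU res and was not tested within that line. Its difference from WT in HCT116 was -0.48 in 5-FU res and -0.025 in OX res. The value of -1.54 is therefore close to the difference within DLD-1 (-1.56).

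For MUC6, the difference of OX res was greater in DLD-1 than in HCT116 by 3.43 and than in SW480 by 3.69. For MUC5AC, DLD-1 exceeded HCT116 and SW480 by 1.47 and 1.44 in 5-FU res and by 1.79 and 1.80 in OX res. Both genes were under a TPM of 1 in the libraries of HCT116 and SW480, so these values are close to the differences within DLD-1.

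For TFF3, DLD-1 was below HCT116 and SW480 in 5-FU res (-1.92 and -1.87) and in OX res (-1.58 and -1.61). For MUC20, DLD-1 was below HCT116 (-2.50) and SW480 (-1.98) in 5-FU res. For AGR2, DLD-1 exceeded HCT116 by 1.07 in 5-FU res, which fell to 0.96 without HCT116 5-FU res replicate 1 or replicate 3 and no longer passed the rule. With a pseudocount of 0.1 the AGR2 value was 1.88 and was not past the rule either (limma adjusted p = 0.086).

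For MUC1, SW480 exceeded HCT116 by 1.30 in 5-FU res, DLD-1 was below SW480 in 5-FU res (-1.18), and DLD-1 exceeded HCT116 by 1.36 in OX res. The difference between DLD-1 and SW480 was -0.98 without SW480 WT replicate 3, the library with the lowest MUC1 of its set, and -0.71 with FPKM, -0.83 with median-of-ratios scaling and -0.60 with quantile normalization, in each case no longer past the rule.

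In all these comparisons the DLD-1 libraries carry a separate run of library numbers, and its part in the differences cannot be told apart from that of the line.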

How the results depend on the processing

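Within the lines, 36 pairs of a member and a comparison were followed through 638 alternative values, of which 606 kept their direction and their side of the rule, 6 lost a call, 9 gained 1 and 17 changed sign. With the comparisons between lines, 73 pairs gave 1927 values, of which 1884 kept both, 13 lost a call, 9 gained 1 and 21 changed sign. The changes of sign were of members not called: MUC1 between HCT116 OX res and 5-FU res (-0.26 FPKM, -0.33 median of ratios, -0.34 quantile), MUC20 there (-0.016 median of ratios), MUC20 in SW480 5-FU res (-0.10 FPKM, -0.17 median of ratios, -0.42 quantile), MUC13 in SW480 OX res (-0.065 quantile), AGR2 in DLD-1 OX res (-0.0031 FPKM, -5.5e-05 median of ratios) and MUC1 between DLD-1 WT and SW480 WT (-0.17 FPKM, -0.19 median of ratios, -0.17 quantile). Leaving out single libraries gave -0.080 to 0.13 for the first, -0.074 to 0.16 for MUC20 in SW480 5-FU res, -0.14 to 0.083 for MUC1 in DLD-1 5-FU res and -0.036 to 0.29 for MUC1 between DLD-1 WT and SW480 WT.

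Members called moved from 0 to 1 in HCT116 OX res with a pseudocount of 0.1 (MUC20), from 2 to 1 in SW480 5-FU res with FPKM, median of ratios, quantile normalization or a mean TPM of 5 or more (which left MUC1 out or uncalled), from 0 to 2 in SW480 OX res, from 1 to 2 in SW480 OX res against 5-FU res and from 3 to 5 in DLD-1 5-FU res with a pseudocount of 0.1. The interaction between SW480 and HCT116 moved from 2 to 1 in 5-FU res at a mean TPM of 5 or more, and in OX res from 0 to 1 with FPKM, median of ratios and quantile normalization and to 2 with a pseudocount of 0.1. Leaving out single libraries gave 0 to 1 members in HCT116 OX res and 1 to 2 in SW480 5-FU res. In DLD-1 5-FU res it gave 3 to 4. For the 5-FU res interaction it gave 3 to 4 between DLD-1 and HCT116 and 4 to 6 between DLD-1 and SW480. For the OX res interaction it gave 0 to 1 between SW480 and HCT116. The other counts of members did not change when a library was left out.

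Genes called moved by over 1.5 times in HCT116 OX res (4667 to 2804 with FPKM and 2600 with quantile normalization), SW480 5-FU res (2976 to 1859 and 1865), SW480 OX res (2101 to 1098, 1196, 1381 with median of ratios and 3181 with a pseudocount of 0.1), SW480 OX res against 5-FU res (1558 to 1021 at a mean TPM of 5 or more), DLD-1 5-FU res (523 to 856 with a pseudocount of 0.1), DLD-1 OX res (486 to 295 with FPKM, 734 with a pseudocount of 0.1 and 302 at a mean TPM of 5 or more) and DLD-1 OX res against 5-FU res (1148 to 759 with FPKM). In the interactions they moved for 5-FU res between DLD-1 and SW480 (3710 to 2354 with FPKM), OX res between SW480 and HCT116 (3083 to 2047 at a mean TPM of 5 or more) and OX res between DLD-1 and SW480 (2281 to 3594 with a pseudocount of 0.1). The cause was not tested. The replicate block, which pairs libraries by number, changed no call of a member. It changed the genes called slightly, with 525 in place of 523 in DLD-1 5-FU res and 488 in place of 486 in OX res. In SW480 OX res it gave 2108 in place of 2101.

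Depth is unknown, so no limit of detection can be given for members listed at 0.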
